A study of Mus musculus with 9 samples.

Results

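The mitochondrial route to cell death was examined through 9 genes that set it in motion or hold it back: the pro-survival genes Bcl2 and Bcl2l1, the pore-forming gene Bax, the BH3-only genes Bid and Bad, the apoptosome genes Apaf1 and Casp9, and the genes Diablo and Aifm1, whose proteins leave the mitochondrion. A probe set, a group of short oligonucleotides summarised into 1 signal, was taken where the array annotation gave it a single gene symbol among these 9. This gave 16 probe sets of 22690 on the array, for 8 of the 9 genes, and Bax was not analysed here. Bcl2l1 had 4 probe sets, Bid, Bad, Casp9, Apaf1 and Diablo had 2 each, and Bcl2 and Aifm1 had 1 each.

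Striatal RNA came from 9 male C57BL/6J mice aged 56 days, with left and right striatum named in the labels and 1 array per mouse. There were 3 mice injected with methamphetamine (METH), a stimulant drug that makes nerve terminals release dopamine, 3 injected with MPTP, which is converted in the brain into a poison that dopamine neurons take up, and 3 saline-injected mice (Control). The sources used here give no doses, injection schedules or delay before the tissue was taken. Both toxins are used to model the dopamine loss of Parkinson's disease. The cell bodies of the dopamine neurons that supply the striatum lie outside it, so the RNA measured here is that of the tissue where these neurons end.

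In this pathway Bcl2 and Bcl-xL, the main product of Bcl2l1, bind and restrain the proteins that perforate the outer mitochondrial membrane. BH3-only proteins such as Bid and Bad relieve that restraint. Once the membrane is open, cytochrome c joins Apaf1 to form the apoptosome, which activates caspase 9, while Diablo (also called Smac) blocks the inhibitors of caspases. Aifm1, a flavoprotein needed for the respiratory chain, can move to the nucleus when released. Much of this control acts on proteins by cleavage, phosphorylation and movement between compartments, which transcript levels do not record.

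None of the mitochondrial apoptosis probe sets that could be tested passed the test in METH or in MPTP striatum. Among the tested probe sets the 3 log2 fold changes furthest from 0 were those of the pro-survival genes: after METH, 0.40 for Bcl2 and -0.35 for the brightest Bcl2l1 probe set, and after MPTP, 0.41 for another Bcl2l1 probe set. That other probe set had 0.14 after METH, and the brightest had -0.22 after MPTP. Within each toxin these 2 probe sets of Bcl2l1 thus differed in sign. The tested probe sets of the BH3-only, apoptosome and released-factor genes had log2 fold changes between -0.23 and 0.26.

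In RefSeq (GRCm38.p6) Bcl2 lies at chr1:106538176-106714290, Bcl2l1 at chr2:152758732-152833803, Bad at chr19:6941861-6951905 and Bid at chr6:120893119-120917062. Apaf1 lies at chr10:90989311-91082743, Casp9 at chr4:141793612-141815978, Diablo at chr5:123511330-123524164 and Aifm1 at chrX:48474944-48513563. The array files carry no coordinates or build of their own.

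The promoters of Bcl2 and Bcl2l1 are shown because these genes gave the values furthest from Control among the tested probe sets. A further reason is that 3 windows were available for Bcl2l1, whose annotated starts spread over 3239 bases. Each window holds 250 bases before and 50 bases after an annotated start, from RefSeq (GRCm38.p6), read 5′ to 3′ on the minus strand. The Bcl2 window is chr1:106714241-106714540. The Bcl2l1 windows are chr2:152831679-152831978 (first), chr2:152830668-152830967 (middle) and chr2:152828440-152828739 (last). The 5′ end of Bcl2l1 in RefSeq, at 152833803, lies outside all 3 windows, so they do not cover every promoter of the gene. Capitals mark the GC box GGGCGG, the CCAAT box CCAAT and the TATA box TATAAA on either strand.
Bcl2: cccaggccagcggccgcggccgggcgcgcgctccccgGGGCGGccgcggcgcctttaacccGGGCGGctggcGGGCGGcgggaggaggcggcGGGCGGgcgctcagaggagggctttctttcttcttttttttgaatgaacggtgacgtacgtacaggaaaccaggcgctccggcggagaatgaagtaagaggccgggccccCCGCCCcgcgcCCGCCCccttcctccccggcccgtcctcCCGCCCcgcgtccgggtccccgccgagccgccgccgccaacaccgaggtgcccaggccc
Bcl2l1 first: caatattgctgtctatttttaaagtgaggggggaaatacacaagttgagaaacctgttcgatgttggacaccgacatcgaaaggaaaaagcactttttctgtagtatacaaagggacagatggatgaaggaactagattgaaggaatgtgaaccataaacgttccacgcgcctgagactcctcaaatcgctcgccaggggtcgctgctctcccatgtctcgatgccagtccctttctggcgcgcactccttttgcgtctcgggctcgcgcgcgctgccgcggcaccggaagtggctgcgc
Bcl2l1 middle: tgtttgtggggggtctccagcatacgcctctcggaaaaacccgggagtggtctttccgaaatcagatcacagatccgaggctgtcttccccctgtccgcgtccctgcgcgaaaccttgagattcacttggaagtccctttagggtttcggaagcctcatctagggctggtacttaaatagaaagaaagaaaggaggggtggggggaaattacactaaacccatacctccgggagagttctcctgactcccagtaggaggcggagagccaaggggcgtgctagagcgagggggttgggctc
Bcl2l1 last: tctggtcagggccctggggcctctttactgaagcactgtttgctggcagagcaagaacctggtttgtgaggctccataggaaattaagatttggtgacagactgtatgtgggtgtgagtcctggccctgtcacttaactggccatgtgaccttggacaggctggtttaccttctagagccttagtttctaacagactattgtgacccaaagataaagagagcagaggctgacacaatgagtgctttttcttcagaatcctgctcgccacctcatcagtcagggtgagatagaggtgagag

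The Bcl2 window held 7 GC boxes and was 76% G and C. The 3 Bcl2l1 windows held none of the 3 motifs, at 52.3%, 55.7% and 49.3% G and C from first to last. The observed over expected count of CG pairs was 1.02 for Bcl2 and, from first to last, 1.07, 0.61 and 0.06 for Bcl2l1, against a median of 0.38 over all 32851 windows in the table. Of the 8 genes, 6 had a GC box in at least 1 window, the exceptions being Bcl2l1 and Aifm1. By window, GC boxes were present in 6 of the 11 windows of these genes, against 35.7% of all windows. A CCAAT box was found in 1 window each of Aifm1, Bad and Diablo, against 37.4% of all windows, and TATAAA in 0 of the 11 windows of these genes, against 13.6% of all windows. A match of letters describes the window and is no evidence that a factor binds there. Which transcript starts each Bcl2l1 probe set reads was not analysed here.

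Signals are linear intensities as deposited, scaled so that each array had a trimmed mean of 2500.6, and array medians ran from 1127.15 to 1232.96 in METH, 1127.51 to 1178.24 in MPTP and 1110.54 to 1126.78 in Control. The array METH 2 stood apart, with the top median and the smallest spread: its 10th to 90th percentile range was 6.25 log2 units, where the remaining 8 arrays had 6.40 to 6.69. Probe sets were tested when their mean log2 signal reached the 40th percentile of the array, 9.53, a signal of 741. This kept 13584 probe sets, among them 11 of the 16 examined here, from 7 genes. Groups were compared in limma with all 9 arrays in 1 fit. Errors are given as SE for log2 fold changes and as SD over 3 arrays for signals, and p-values were adjusted by Benjamini-Hochberg over the 13584, with 0.05 as the threshold. Over all probe sets 2 passed after METH and 2 after MPTP, all of them Gfap, the intermediate filament gene of astrocytes. Its brighter probe set had a signal of 12286 ± 1444 in METH, 12324 ± 1152 in MPTP and 5620 ± 732.5 in Control (n = 3 each), with limma log2 fold changes of 1.13 ± 0.13 (adjusted p = 0.0395) and 1.14 ± 0.13 (adjusted p = 0.0374). The threshold was not always met with 1 array left out, though the size of the difference held. For the brighter Gfap probe set the log2 fold change stayed between 1.04 and 1.23 after METH and between 1.06 and 1.24 after MPTP. After MPTP 0 probe sets passed with any 1 array left out. After METH 0 passed without any 1 METH or Control array or without MPTP 3, 1 Gfap probe set passed without MPTP 1, and without MPTP 2 the 2 that passed were 1 of Gfap and 1 of Pom121. Between METH and MPTP 0 passed, with 380 at an unadjusted p under 0.05.

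The labelled tissue was checked against its markers. All 7 striatal spiny neuron markers measured were above the filter, and Ppp1r1b, the dopamine signalling phosphoprotein gene of these neurons, averaged 32391 ± 1511 in METH, 29866 ± 1145 in MPTP and 31810 ± 4056 in Control. Its log2 fold changes were 0.03 ± 0.11 after METH, turning to -0.03 with arrays centred on their medians, and -0.08 ± 0.11 after MPTP. Of the 7 spiny neuron genes, 2 were higher and 5 lower after METH, and 1 higher and 6 lower after MPTP. Tac1, the substance P precursor gene, was lower on every METH array than on every Control array, at -0.26 ± 0.11 (limma, unadjusted p = 0.0317, adjusted p = 0.535), and had -0.21 ± 0.11 after MPTP. Rgs9, another gene of this list, went the other way after METH on its brightest probe set, 1418691_at, at 0.10 ± 0.11. There every METH array lay above every Control array. The METH and Control arrays did not overlap for 13.7% of all probe sets tested. Astrocyte markers summed over 8 genes gave 56401 to 67031 in METH and 62776 to 69141 in MPTP, against 52213 to 55909 in Control. Without Gfap the sums over 7 genes were 45443 to 53650 in METH and 50751 to 55546 in MPTP, against 46809 to 49473 in Control, so that METH overlapped Control and MPTP did not. Microglia markers summed over 10 genes gave 55208 to 56004 in METH and 51663 to 55939 in MPTP, against 45224 to 51448 in Control. Of the microglia genes tested, 9 of 9 were higher after each toxin, and of 8 astrocyte genes 7 were higher after METH and 6 after MPTP. The remaining microglia gene, Trem2, was under the filter. Its brighter probe set, 1421226_at, was lower on every MPTP array than on every Control array. Without the filter its log2 fold changes were -0.975 ± 0.267 after MPTP and 0.038 ± 0.267 after METH. Summed oligodendrocyte markers overlapped between groups (153097 to 162044 in METH, 155047 to 174288 in MPTP, 141266 to 160167 in Control), while 5 of 8 oligodendrocyte genes were higher after METH and 8 of 8 after MPTP. Sox10, a transcription factor gene of these cells, did not overlap Control after either toxin on its brightest probe set, 1451689_a_at. There it had 0.64 ± 0.10 after METH (limma, unadjusted p = 8.2e-05, adjusted p = 0.255) and 0.34 ± 0.10 after MPTP (adjusted p = 0.805). After METH its other probe sets had 0.114 ± 0.095 (1424985_a_at) and 0.321 ± 0.127 (1425369_a_at, where METH overlapped Control). After MPTP they had 0.225 ± 0.095 and 0.329 ± 0.127. The MPTP and Control arrays did not overlap for 11.1% of all probe sets tested. The endothelial, blood cell and dopamine terminal sums overlapped between groups. Choroid plexus markers varied most, with sums over 3 genes of 9826 to 52611 in METH, 4064 to 34834 in MPTP and 12843 to 68117 in Control. Th, which encodes tyrosine hydroxylase, had log2 fold changes of 0.04 ± 0.17 after METH and -0.13 ± 0.17 after MPTP. Ddc, the next enzyme of that pathway, had 0.41 ± 0.16 after METH (limma, adjusted p = 0.535) and 0.50 ± 0.16 after MPTP (adjusted p = 0.843), where its arrays lay above all Control arrays. In whole striatum, fewer cells of a type and less RNA per cell cannot be told apart, and the part of these neuron, astrocyte, microglia, oligodendrocyte and choroid plexus levels in the values below was not tested.

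Bcl2, the founding pro-survival member of its family, had signals of 2310, 2405 and 2314 on the METH arrays, 2315, 1447 and 1906 on the MPTP arrays, and 1431, 2096 and 1865 on the Control arrays. Every METH value exceeded every Control value, whereas the MPTP arrays spanned nearly the whole Control range and beyond it. The 3 METH arrays also lay close together, with an SD of 54, against 434.6 in MPTP and 337.5 in Control. The log2 fold change was 0.40 ± 0.18 after METH, with a 95% interval from -0.002 to 0.80 (limma, unadjusted p = 0.051, adjusted p = 0.571). After MPTP it was 0.06 ± 0.18 (adjusted p = 0.979). The METH value was 0.24 without Control 1, whose Bcl2 signal was the lowest of the 9.

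**Figure D1:**
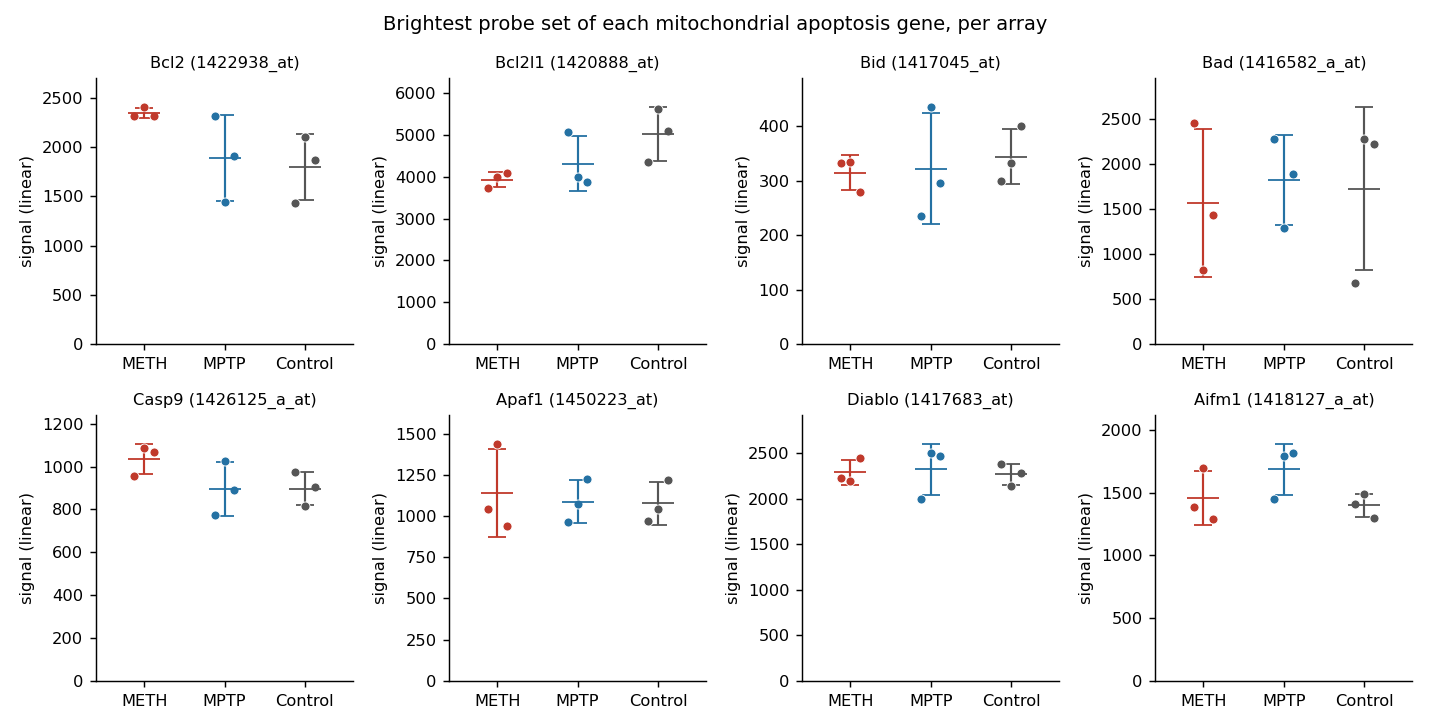
Signal (linear intensity) of the brightest probe set of each of the 8 genes on every array, by group, with points for arrays and bars for the mean and SD of 3 arrays. The METH arrays lie above the Control arrays for Bcl2 and below them for Bcl2l1, and the groups overlap in the other panels.

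Bcl2l1, which encodes the pro-survival protein Bcl-xL and by splicing a shorter form that promotes death, was read by 3 probe sets above the filter. The brightest, 1420888_at, had signals of 3720, 3991 and 4085 in METH, 5071, 3981 and 3880 in MPTP, and 4342, 5627 and 5092 in Control. Every METH array lay below every Control array, and MPTP 1 lay within the Control range while MPTP 2 and 3 lay under it. Its log2 fold change was -0.35 ± 0.13 after METH (unadjusted p = 0.0266, adjusted p = 0.535 in limma), with an interval from -0.64 to -0.05. After MPTP it was -0.22 ± 0.13 (adjusted p = 0.883).

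The next probe set, 1420887_a_at, had signals of 2211, 2615 and 2514 in METH, 2798, 3309 and 2782 in MPTP, and 2227, 2102 and 2339 in Control. Here the MPTP arrays lay above all Control arrays and above all METH arrays, and METH 1 lay within the Control range with METH 2 and 3 above it. The suffix _a marks a probe set that matches several transcripts of a gene. Its log2 fold change was 0.41 ± 0.11 after MPTP, with an interval from 0.17 to 0.65 and the smallest unadjusted p of the 11 probe sets (0.0036, adjusted p = 0.766 in limma). After METH it was 0.14 ± 0.11 (adjusted p = 0.735).

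The third, 1426191_a_at, had 682, 910.2 and 984.6 in METH, 889.3, 1058 and 894.1 in MPTP, and 833.1, 979 and 881.4 in Control, and its groups overlapped. Its log2 fold changes were -0.08 ± 0.14 after METH and 0.08 ± 0.14 after MPTP. A 4th probe set, 1426050_at, was under the filter, with mean signals of 285 ± 185.6 in METH, 194.2 ± 84.1 in MPTP and 254.5 ± 87.8 in Control. Of the 3 probe sets tested, 1 gave a positive value after METH and 2 after MPTP.

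The disagreement was followed within each array, a comparison chosen after the values were seen. The ratio of 1420887_a_at to 1420888_at was 0.594, 0.655 and 0.615 in METH, 0.552, 0.831 and 0.717 in MPTP, and 0.513, 0.374 and 0.459 in Control. All toxin arrays lay above all Control arrays. The log2 ratio differed from Control by 0.48 in METH and by 0.63 in MPTP, against an SD of 0.222 between arrays of a group. Without Control 2, which had the lowest ratio, these values were 0.36 and 0.51. Among 6858 pairs of tested probe sets that share a gene, the ratios of METH and Control did not overlap for 12.6% of pairs, and those of MPTP and Control for 9.38%, and no test was made. The ratio of 3' to 5' signal of control transcripts, a gauge of RNA integrity, was 0.732 to 0.84 in METH, 0.785 to 0.836 in MPTP and 0.828 to 0.858 in Control for Gapdh. For the transferrin receptor it was 2.25 to 2.94, 2.76 to 3.73 and 2.20 to 2.81 in these groups, and for pyruvate carboxylase 1.42 to 2.89, 2.16 to 2.95 and 2.46 to 3.38. Beta-actin gave 1.08 to 1.17, 1.11 to 1.17 and 1.07 to 1.21. The groups overlapped for each of these transcripts, and the part of RNA integrity in the Bcl2l1 ratio was not tested.

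**Figure D2:**
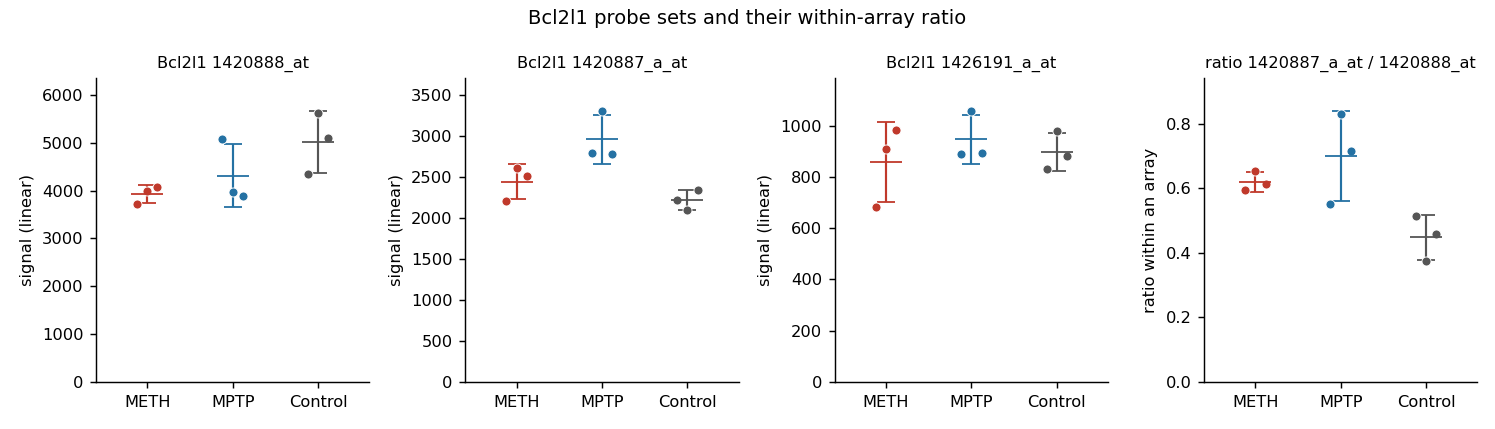
Signals (linear intensity) of the 3 tested Bcl2l1 probe sets on every array, and the within-array ratio of the brightest pair (no unit), with the mean and SD of 3 arrays. The ratio lies between 0.552 and 0.831 on the toxin arrays and between 0.374 and 0.513 on the Control arrays.

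Bad, a BH3-only protein that growth factor signalling keeps phosphorylated and inactive, had the most scattered of the 11 tested probe sets. Probe set 1416582_a_at gave 2450, 826.1 and 1433 in METH, 2281, 1288 and 1893 in MPTP, and 679.2, 2280 and 2219 in Control. The lowest arrays came from Control and METH, and each group spanned much of the same range. Its SD within groups was 0.772 log2 units, at the 99.8th percentile of all probe sets tested, where the median was 0.16. The log2 fold changes were accordingly imprecise, at -0.08 ± 0.50 after METH and 0.23 ± 0.50 after MPTP, and the 95% interval after METH ran from -1.19 to 1.02. Without Control 1 the MPTP value was -0.34, and without METH 2 the METH value was 0.31.

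The other Bad probe set, 1416583_at, was steadier, with 1208, 907.3 and 1190 in METH, 1171, 1362 and 1180 in MPTP, and 1398, 1234 and 1208 in Control. The METH arrays lay below the Control arrays, though METH 1 and Control 3 differed by less than 1 unit of signal (1207.9 and 1208.1). The log2 fold change was -0.23 ± 0.13 after METH (adjusted p = 0.66 in limma) and -0.05 ± 0.13 after MPTP (adjusted p = 0.979), and the METH value was -0.09 without METH 2. The 2 Bad probe sets had a Pearson r of 0.07 over the 9 arrays.

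Bid, which caspase 8 cleaves to carry a death receptor signal to the mitochondrion, was dim. Its brighter probe set, 1417045_at, gave 332.2, 334.1 and 278.7 in METH, 235.9, 435.5 and 295.2 in MPTP, and 300.2, 332.8 and 399.6 in Control, under the signal of 741 that the filter required. Its groups overlapped, and without the filter its log2 fold changes were -0.12 ± 0.23 after METH and -0.13 ± 0.23 after MPTP. The other probe set, 1448560_at, averaged 45 ± 21.3 in METH, 32.8 ± 8.6 in MPTP and 29.3 ± 7.3 in Control. Bid was thus the 1 gene of the 8 with no tested probe set.

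**Figure D3:**
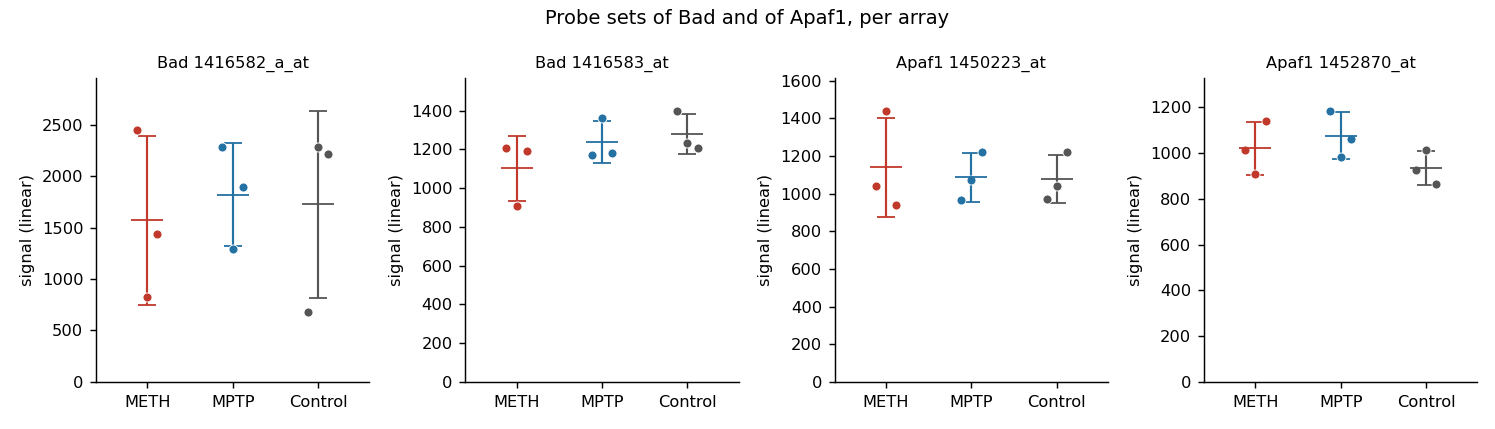
Signals (linear intensity) of both probe sets of Bad and both of Apaf1 on every array, with the mean and SD of 3 arrays. Probe set 1416582_a_at of Bad ranges from 679.2 to 2450 across arrays, while 1416583_at ranges from 907.3 to 1398.

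Apaf1, the scaffold of the apoptosome, had 2 tested probe sets. The first, 1450223_at, gave 1042, 1439 and 937 in METH, 964.5, 1072 and 1222 in MPTP, and 969.6, 1042 and 1220 in Control. Its groups overlapped, with METH 2 the highest array, and its log2 fold changes of 0.06 ± 0.17 after METH and 0.01 ± 0.17 after MPTP turned negative with cyclic loess (-0.02 and -0.04) and with arrays centred on their medians. The second, 1452870_at, gave 1015, 906.9 and 1139 in METH, 1183, 982.3 and 1060 in MPTP, and 923.8, 1015 and 863.7 in Control, with 0.12 ± 0.12 and 0.20 ± 0.12 (adjusted p = 0.783 and 0.883 in limma). These 2 probe sets ran against each other over the 9 arrays, with a Pearson r of -0.59.

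Casp9, the initiator caspase that the apoptosome activates, gave 954, 1087 and 1066 in METH, 772.4, 1026 and 892 in MPTP, and 972.4, 814.9 and 905 in Control on probe set 1426125_a_at. Of the METH arrays, METH 2 and 3 lay above all Control arrays and METH 1 lay within their range. The log2 fold change was 0.21 ± 0.12 after METH (adjusted p = 0.668 in limma) and -0.01 ± 0.12 after MPTP (adjusted p = 0.997). The other Casp9 probe set, 1437537_at, lay just under the filter at the 38.9th percentile of mean signal, with 718.5 ± 74.8 in METH, 660.2 ± 143.3 in MPTP and 763.8 ± 125.1 in Control.

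Diablo gave 2228, 2191 and 2448 in METH, 1993, 2498 and 2470 in MPTP, and 2375, 2143 and 2283 in Control on its brighter probe set, 1417683_at. The 3 groups shared 1 range. Its log2 fold changes were 0.01 ± 0.11 after METH and 0.03 ± 0.11 after MPTP, both of which turned negative with quantile normalization and with median centring. The 95% intervals, -0.24 to 0.26 and -0.22 to 0.28, held 0 near their middle. Its dim probe set, 1425768_at, averaged 285.1 ± 202 in METH, 421.5 ± 147.9 in MPTP and 647 ± 289.3 in Control, with overlapping groups. Without the filter the METH value of this dim probe set was -1.33 ± 0.55 (adjusted p = 0.696 in limma).

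Aifm1 gave 1386, 1699 and 1290 in METH, 1447, 1792 and 1815 in MPTP, and 1407, 1487 and 1299 in Control on probe set 1418127_a_at. MPTP 2 and 3 lay above all Control arrays and MPTP 1 lay within their range. The log2 fold change was 0.26 ± 0.13 after MPTP, with an interval from -0.03 to 0.56 (unadjusted p = 0.0751, adjusted p = 0.875 in limma). After METH it was 0.05 ± 0.13 (adjusted p = 0.924), and -0.06 without METH 2.

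**Figure D4:**
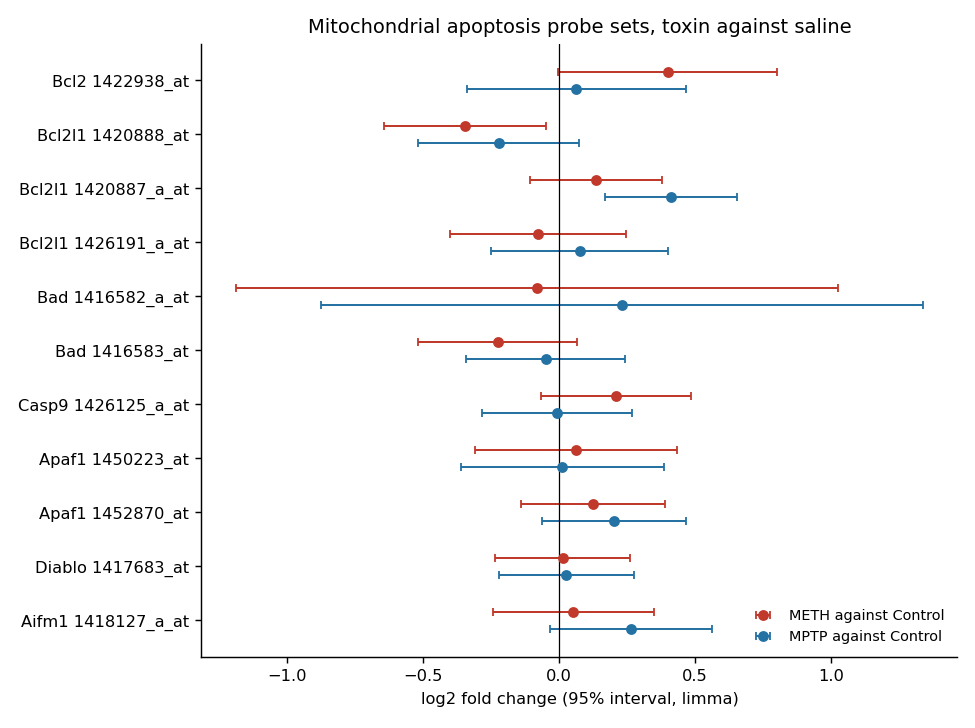
Log2 fold change against Control of the 11 tested probe sets (points) with 95% intervals from limma, METH and MPTP in separate colours. The interval excludes 0 for Bcl2l1 1420888_at after METH and for Bcl2l1 1420887_a_at after MPTP, before adjustment over all probe sets.

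Counted together, 7 of the 11 tested probe sets were above Control and 4 below after METH, and 8 above and 3 below after MPTP. With median centring of the arrays or cyclic loess the METH tally turned to 4 above and 7 below, and with median centring or quantile normalization the MPTP tally was 6 above and 5 below. Their median log2 fold change was 0.05 after METH and 0.06 after MPTP, against 0.01 and 0.01 over all 13584, and median centring of the arrays took the METH value to -0.01 and cyclic loess took it to -0.02. After METH 0 of 11 passed the test, where 0.0147% of all probe sets did, and 1 had an unadjusted p under 0.05, where 8.77% of all did. After MPTP the counts were 0 and 1, with 0.0147% and 5.52% over all. The METH and Control arrays did not overlap for 3 of the 11 (Bcl2, Bcl2l1 1420888_at and Bad 1416583_at), where 13.7% of all probe sets did not, and the MPTP and Control arrays for 1 of the 11 (Bcl2l1 1420887_a_at), where 11.1% did not. The median size of the log2 fold change was 0.12 after METH and 0.08 after MPTP in these 11, against 0.11 and 0.10 over all probe sets. The 2 toxin comparisons share their Control arrays.

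METH was also set against MPTP directly. Of the 11 probe sets, 3 were higher and 8 lower in METH than in MPTP, with a median log2 difference of -0.12 against 0.00 over all probe sets, and 0 passed (0% of all probe sets did). This median was -0.0138 with 1 probe set per gene, with 3 genes higher and 4 lower, and -0.0425 without METH 2. Bcl2l1 1420887_a_at was lower on all METH arrays than on all MPTP arrays, by -0.28 ± 0.11 (unadjusted p = 0.0298, adjusted p of nearly 1 in limma), the 1 value of the 11 with an unadjusted p under 0.05, where 2.8% of all probe sets had one. It was also the 1 probe set without overlap, where 7.25% of all had none. Bcl2 had 0.34 ± 0.18 (interval -0.07 to 0.74), Casp9 1426125_a_at had 0.21 ± 0.12, and Aifm1 had -0.21 ± 0.13.

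Other genes of the pathway were taken from 4 lists. Of the other BCL2 family genes, 15 probe sets of 8 genes were tested, and 12 were above Control and 3 below after METH, with a median of 0.17. Several of the 15 were of Mcl1. Taking the brightest probe set of each gene, 6 were above and 2 below after METH, with a median of 0.137. This METH tally was not recomputed with other normalizations. The 3 smallest p-values were those of Mcl1, a short-lived pro-survival protein, at 0.36 ± 0.11 (1448503_at), 0.41 ± 0.15 (1416881_at) and 0.28 ± 0.12 (1416880_at), with adjusted p-values of 0.505 to 0.554 in limma. Another Mcl1 probe set, 1456243_x_at, had -0.30 ± 0.15 (adjusted p = 0.609), so the probe sets of Mcl1 also disagreed in sign. After MPTP 8 were above and 7 below, with a median of 0.06, though by the brightest probe set of each gene 3 were above and 5 below, with a median of -0.07. The pro-survival gene Bcl2l2 (Bcl-w) gave -0.25 ± 0.11 on 1423572_at and 0.58 ± 0.26 on 1430453_a_at, so its probe sets disagreed in sign as those of Bcl2l1 did, and Mcl1 1456243_x_at again had a negative value, -0.27 ± 0.15. None of the 15 passed in either comparison (smallest adjusted p 0.505 and 0.875).

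Further released factors, caspases and their inhibitors gave 12 tested probe sets of 7 genes, 6 above and 6 below Control after each toxin, with medians of 0.01 after METH and -0.02 after MPTP. Cycs, the gene of cytochrome c, the protein that nucleates the apoptosome, had -0.29 ± 0.09 after METH (unadjusted p = 0.00791, adjusted p = 0.49 in limma) and -0.16 ± 0.09 after MPTP on 1456071_a_at. Its other tested probe sets were nearer 0, with -0.08 ± 0.14 (1422483_a_at) and -0.08 ± 0.08 (1422484_at) after METH, and 0.04 ± 0.14 and -0.08 ± 0.08 after MPTP. Xiap, the caspase inhibitor that Diablo binds, had 0.25 ± 0.09 after METH on 1456088_at. On its brightest probe set, 1437533_at, it had 0.113 ± 0.115, and METH overlapped Control. Birc6, a giant inhibitor of the same family, had 0.30 ± 0.14 after METH on 1419562_at. Birc2, a ubiquitin ligase of that family, and Endog, a mitochondrial nuclease, had -0.20 ± 0.12 and -0.20 ± 0.14 after MPTP. None of the 12 passed.

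In the p53 and death receptor arms, which feed the mitochondrial route from DNA damage and from surface receptors, 6 probe sets of 5 genes were tested, 5 above Control and 1 below after each toxin, with medians of 0.23 after METH and 0.08 after MPTP. Cflar, the decoy that blocks caspase 8, had 0.33 ± 0.12 after METH. Mdm2, the ligase that degrades p53, had 0.25 ± 0.11 after METH on 1427718_a_at, its dimmer probe set. The p53 target Cdkn1a had 0.41 ± 0.26 after METH and 0.40 ± 0.26 after MPTP. Mitochondrial membrane partners gave 39 tested probe sets of 17 genes, with 13 above and 26 below after METH and 18 above and 21 below after MPTP. By the brightest probe set of each gene, 5 were above and 12 below after METH, while after MPTP 11 were above and 6 below, the other way from the count of probe sets. Bag4, a co-chaperone that silences death receptors, had 0.48 ± 0.14 after METH (adjusted p = 0.462 in limma) and 0.26 ± 0.14 after MPTP on 1418707_at, but 0.09 ± 0.11 and 0.11 ± 0.11 on its brighter probe set, 1449186_at. Dnm1l, the dynamin that divides mitochondria, had 0.41 ± 0.16 on 1452638_s_at after METH, and after MPTP 0.27 ± 0.16 on that probe set and 0.16 ± 0.09 on 1428087_at. Its brighter probe sets gave 0.12 ± 0.09 (1428087_at) and -0.08 ± 0.09 (1428086_at) after METH, and 1428086_at gave -0.01 ± 0.09 after MPTP, turning to 0.01 with quantile normalization. Vdac1, the outer membrane channel gene, had -0.44 ± 0.23 after METH on 1437947_x_at, its dimmest tested probe set. Its brighter probe sets were nearer 0, with -0.178 ± 0.107 (1437192_x_at), -0.115 ± 0.085 (1436992_x_at) and -0.096 ± 0.087 (1415998_at) after METH. In these 2 lists 0 of 6 and 0 of 39 probe sets passed in either comparison.

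**Figure D5:**
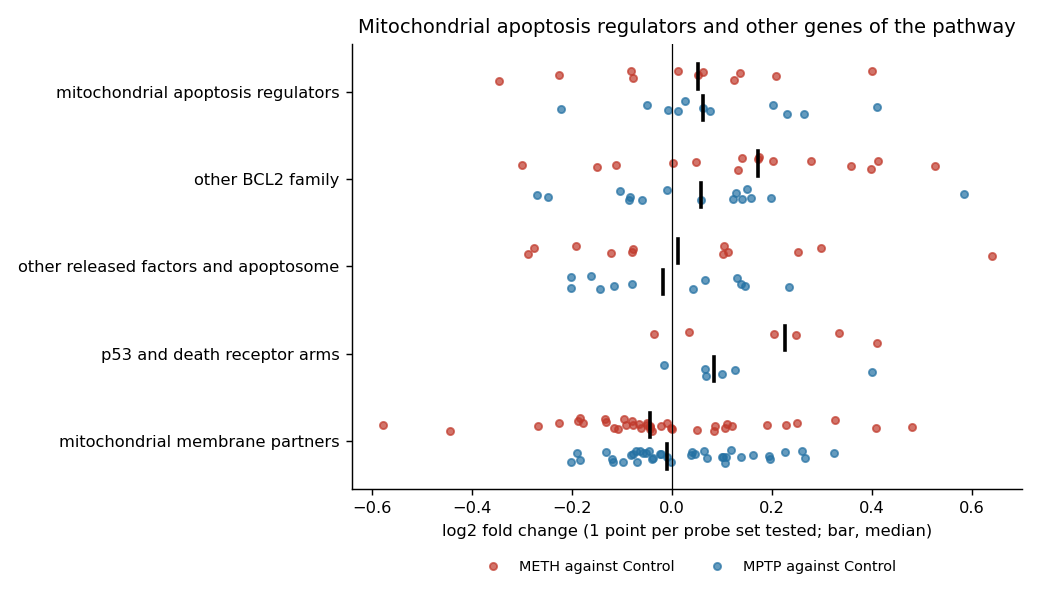
Log2 fold change against Control of every tested probe set of the mitochondrial apoptosis regulators and of 4 lists of other pathway genes (1 point each, with a bar at the list's median). The medians lie between -0.04 and 0.23 after METH and between -0.02 and 0.08 after MPTP.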

How the data were processed

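Single-colour Affymetrix expression arrays, 1 per mouse, measured 3 METH, 3 MPTP and 3 Control striata. The deposited values are linear intensity per probe set, and the unit was taken from the values (0.342 to 84013). RMA is named, with no version or settings, per the submitters' processing notes, but the values are not on the log scale that RMA gives, so how probes were summarised is unsettled. Scale was settled as linear and not centred by gene. The submitters' text names a larger array than the one whose annotation matched.

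Gene symbols came from the platform annotation and were looked up by gene ID in a RefSeq table (GRCm38.p6). Of 22690 probe sets 20380 had 1 symbol, 691 several, 1555 none listed and 64 were controls. Log2 values were used with no pseudocount. limma 3.58.1 in R 4.3.3 (lmFit, eBayes) fitted 1 mean per group, with 6 residual and 3.94 prior degrees of freedom, two-sided. The code was tested on simulated data. Alternatives were other normalizations, a pseudocount of 64, other filters, 1 probe set per gene, an intensity trend, array weights, 2 groups only, a replicate block and leaving out each array. Each group has 3 biological replicates per the labels, whose number limits the precision. An exact permutation test of 3 arrays against 3 has a smallest p of 0.1, and it was not run.

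The rule for naming genes gave every array's value for the brightest probe set of each gene and for any probe set with an unadjusted p under 0.05 or without overlap, up to 4 probe sets of smallest p in each pathway list for each toxin, and Gfap, Th and Ppp1r1b. After the values were seen, the pathway lists were shortened to at most 3 probe sets with an unadjusted p under 0.2. Other probe sets of Mcl1, Cycs, Bag4, Dnm1l, Vdac1 and Xiap, and Tac1, Rgs9, Sox10, Ddc, Trem2 and the astrocyte sum without Gfap, were also added then. Rgs9, Trem2, the added probe sets of Vdac1 and Xiap, and the dimmer ones of Sox10 were not followed under the alternative settings. The genes and lists were chosen with earlier results of these data known. A planned within-array ratio of Bax to Bcl2 was not computed, since Bax was not analysed here.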

Additional observations from a re-analysis of the deposited data

How the results depend on the processing

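Of 515 recomputed log2 fold changes of the tested apoptosis probe sets, 477 kept their sign and stayed short of the threshold, 38 turned sign and 0 passed. Other filters, 1 probe set per gene, the intensity trend, the replicate block and 2 groups alone cannot change a log2 fold change here. Neither can leaving out an array of a group not compared. Part of the 477 was thus fixed in advance, so that count cannot show how stable the signs are. The smallest adjusted p in limma under any setting was 0.322, with array weights. The count of all probe sets past the test after METH (2) was 0 with arrays centred on their medians and with the replicate block, 1 (Gfap) with 1 probe set per gene, 1 (Oas1b, not Gfap) with no filter, 1 (Pom121, not Gfap) with only the 2 groups compared, and 0 to 2 without single arrays. Oas1b and Pom121 were chosen for mention after their values were seen. After MPTP it was 0 with median centring, no filter, the replicate block and the 2 groups alone, 1 with 1 probe set per gene and with array weights, and 0 without any 1 array. Replicate numbers are shared between groups, and deviations of same-numbered arrays correlated at -0.132 to 0.054 over all tested probe sets. These values gave no sign of pairing, but they cannot exclude a shared batch that touched only some probe sets. The METH against MPTP median was -0.0138 with 1 probe set per gene and -0.153 to -0.0425 without single arrays, and the MPTP median 0.0182 to 0.14. Values turned sign as follows. After METH these were Diablo (-0.0348 with quantile normalization, -0.0502 with median centring, -0.0209 with cyclic loess), Aifm1 (-0.0105 with centring, -0.0065 with loess), Apaf1 1450223_at (-0.000757 with centring, -0.0171 with loess, -0.0953 with array weights), Th (-0.0198 with quantile, -0.0243 with centring, -0.0341 with loess) and Ppp1r1b (-0.0307 with centring). After MPTP they were Diablo (-0.00134 with quantile, -0.0129 with centring), Apaf1 1450223_at (-0.0290 with quantile, -0.0282 with centring, -0.0406 with loess, -0.0936 with weights) Bad 1416582_a_at (-0.0406 with weights), Dnm1l 1428086_at (0.0131 with quantile, 0.0115 with loess) and Cycs 1422483_a_at (-0.0116 with weights). Leaving out single arrays gave, after METH, -0.657 to 0.312 for Bad 1416582_a_at, -0.0359 to 0.0477 for Diablo, -0.062 to 0.137 for Aifm1, -0.185 to 0.0797 for Bcl2l1 1426191_a_at, -0.118 to 0.192 for Apaf1 1450223_at, -0.104 to 0.201 for Th, -0.0626 to 0.123 for Ppp1r1b and -0.202 to 0.00475 for Cycs 1422483_a_at. After MPTP it gave -0.344 to 0.529 for Bad 1416582_a_at, -0.12 to 0.0164 for Bad 1416583_at, -0.0297 to 0.133 for Diablo, -0.0964 to 0.243 for Bcl2, -0.109 to 0.0956 for Casp9, -0.00661 to 0.14 for Bcl2l1 1426191_a_at, -0.0766 to 0.105 for Apaf1 1450223_at, -0.241 to 0.0316 for Th, -0.179 to 0.00584 for Ppp1r1b, -0.0792 to 0.157 for Cycs 1422483_a_at and -0.0584 to 0.0172 for Dnm1l 1428086_at. The cause of these shifts was not tested. With 1 probe set per gene, or the stricter filter, probe sets that were left out have no value.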

Other observations

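Probe sets of 1 gene often ran apart on these arrays. Over 6858 pairs of tested probe sets that share a symbol, from 3014 genes, the median Pearson r over 9 arrays was 0.134, and 38.3% of pairs had a negative r. The pairs of Bcl2l1 had -0.355 (1420887_a_at and 1420888_at), 0.517 (1420887_a_at and 1426191_a_at) and 0.275 (1420888_at and 1426191_a_at). These values share arrays and scaling, and they describe the 9 arrays only.

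Between genes, the brightest probe sets of Casp9 and Diablo had the highest r of the 21 pairs, 0.614, followed by Apaf1 and Aifm1 at 0.512. The lowest were Bcl2l1 with Casp9 at -0.712 and Bad with Casp9 at -0.664. These are extremes of 21 pairs over 9 arrays, with group differences left in, and none was tested. They rest on 1 probe set per gene. The Bad probe set used, 1416582_a_at, had an r of 0.065 with the other Bad probe set. The Bcl2l1 probe set used, 1420888_at, had -0.355 with 1420887_a_at. Among 12509 tested probe sets of 1 symbol, the closest in pattern to Bcl2 were Surf4 (r = 0.953) and Mme (0.937), to Bcl2l1 1420888_at Slc6a6 (0.946) and Cox17 (0.943), to Casp9 Glo1 (0.963) and Yap1 (0.948), and to Diablo Tlk2 (0.961) and Phyhipl (0.945). To Bad 1416582_a_at they were Retreg1 (0.952) and Cmtm6 (0.947), to Apaf1 1450223_at Pkdcc (0.949) and Mvb12b (0.935), and to Aifm1 Dnajc28 (0.938) and Ugp2 (0.928). These genes were picked for the highest r among 12509 probe sets over only 9 arrays. Such a search can return values this high for unrelated genes, and no link between the genes was tested.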
